A study of Mus musculus with 24 samples.

Results

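Sorted pancreatic progenitor cells of mouse embryos were compared between maternal high-fat diet (HFD) and maternal low-protein diet (LPD) in the libraries titled mutant. The comparison holds 3 HFD libraries and 4 LPD libraries, 7 of the 24 libraries of the series, chosen by their column titles and using no library of the normal diet. All groups carry an allele in which eGFP replaces the coding region of Neurog3 (Ngn3), and eGFP-positive cells were sorted from the pancreas at E15.5, with males and females pooled per the labels. The dams were Ngn3eGFP/+ females put on the diet at 6 weeks of age, kept on it for 2 weeks before mating with Ngn3eGFP/+ males on control diet, and left on it until collection. The same pair of diets was measured in libraries titled control, 3 of HFD and 4 of LPD, and these are set beside the titled mutant values. The genotype field and the titles disagree: the field gives Ngn3eGFP/+ for the titled mutant libraries and Ngn3eGFP/eGFP for the titled control ones, whereas the design text describes cells with no intact allele as progenitors that have not become islet cells. Neurog3 had 6.13 to 11.2 CPM of total (counts scaled to a common library total) in titled mutant HFD libraries and 6.19 to 23.2 in titled mutant LPD libraries, against 98.95 to 121 in titled control HFD libraries and 143.5 to 276 in titled control LPD libraries. The groups are therefore called by their titles.

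As background, Neurog3 is the transcription factor that commits pancreatic duct-like progenitors to the islet fate, and cells that lack it do not make islet hormones. A high-fat diet changes the supply of lipid from the dam, and a low-protein diet that of amino acids. Cells sense missing amino acids through the kinase Eif2ak4 and the factor Atf4, and they sense unfolded protein in the endoplasmic reticulum through Ern1, Atf6 and Eif2ak3, which raise chaperones such as Hspa5. Pancreatic acinar cells, which make digestive enzymes, hold much of that organelle.

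The libraries held 44688814, 28551323 and 34144927 counts in HFD 1 to 3 and 34252631, 27533846, 25881953 and 27474463 counts in LPD 1 to 4. Progenitor epithelium was present in each: Epcam ran from 396 to 454 CPM (scaled by TMM) in HFD and from 342 to 424 CPM in LPD, and Cdh1, Sox9, Pdx1, Nkx6-1 and Krt19 all exceeded 50 CPM in every library. Markers of other cell types varied widely between libraries, as the plot of marker lists by library shows, and most had negative log2 fold changes of HFD over LPD. This held for 15 of 15 endothelial genes tested (median -0.58), 9 of 9 erythroid genes, 16 of 17 blood and immune genes (median -0.41), 13 of 14 liver genes and 20 of 24 mesenchyme genes (median -0.32), beside 11141 of 20369 genes in all. No member of these lists lay above in every HFD library, and at most 2 in a list lay below in every one. Summed islet hormones were 74.9, 8.41 and 3.81 CPM of total in HFD 1 to 3, against 305, 311, 4.75 and 3.97 in LPD 1 to 4. Hormone RNA was thus high in LPD 1, LPD 2 and, less so, HFD 1, although the design text describes cells that have not become islet cells. Blood and immune genes summed to 418, 390 and 203 CPM of total in HFD against 199, 211, 754 and 600 in LPD, and mesenchyme genes to 1150, 1134 and 446 against 676, 674, 1691 and 1627. Liver genes reached 1749 CPM of total in LPD 3, against 732 to 758 in the other LPD libraries and 639 to 717 in HFD. The first principal component, 37.7% of the variance, set LPD 1 and LPD 2 (scores of 40.8 and 41.7) opposite LPD 3 and LPD 4 (scores of -47.7 and -37.9), with the HFD libraries between -18.4 and 23.4. The share of duplicate reads was 54.7%, 53.6% and 46.6% in HFD and 45.1%, 41.4%, 39.1% and 43.1% in LPD, so that every HFD library lay above every LPD one (exact two-sided permutation test, p = 0.0571, the smallest these groups allow; 0.342 after Benjamini-Hochberg adjustment over 8 library quantities). In bulk RNA, fewer cells of a type and less RNA per cell cannot be told apart. Nothing in the labels says whether libraries of a group came from separate litters, so the p-values measure the spread between these libraries, which may be partly technical.

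**Figure D1:**
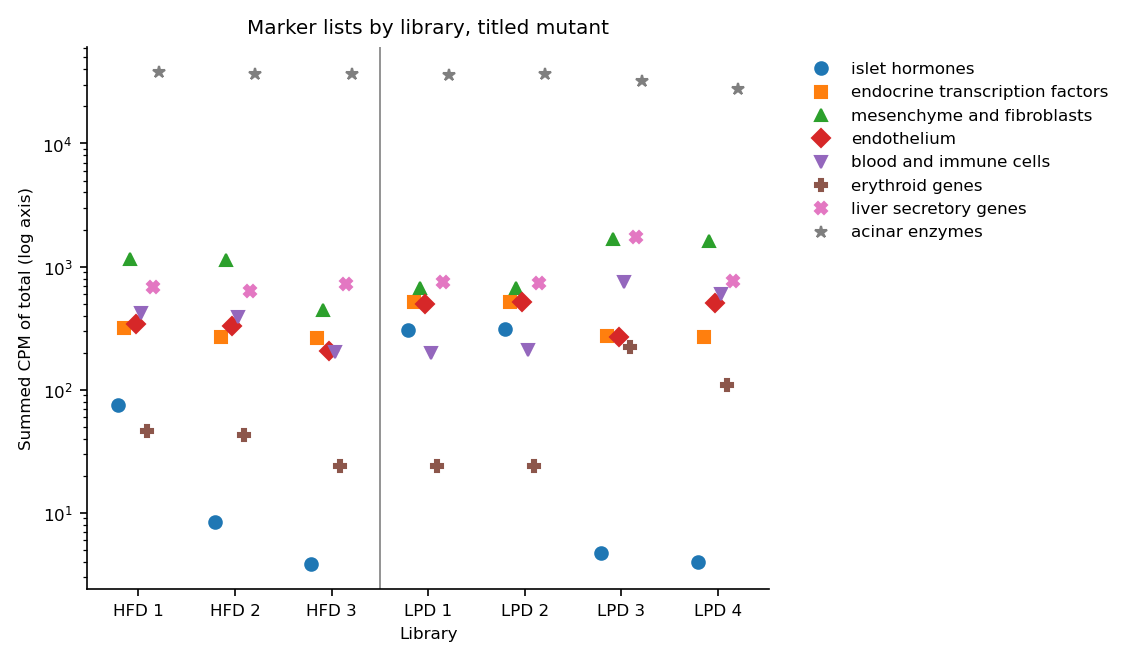
Summed level of 8 marker lists (CPM of total, log axis) in each titled mutant library, 3 HFD at the left and 4 LPD at the right. Islet hormones are high in LPD 1 (305) and LPD 2 (311), and erythroid genes in LPD 3 (221) and LPD 4 (110.2); neither separates the diets.

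Of 20369 genes tested, 1 passed the threshold of 0.05 on the adjusted p (edgeR quasi-likelihood test with Benjamini-Hochberg adjustment), which is 0.00491% of them. It was Tpm3-rs7, which rose in HFD. The locus (ENSMUSG00000058126.7, chr14:113314608-113316754, GRCm38, annotated as protein coding) is a related sequence of Tpm3, the gene of an actin-binding tropomyosin on chromosome 3. Tpm3-rs7 had 60.4, 58.0 and 54.9 CPM in HFD 1 to 3, against 29.7, 28.7, 26.9 and 32.7 CPM in LPD 1 to 4. All HFD libraries were far above all LPD libraries, with a log2 fold change of HFD over LPD of 0.97 ± 0.08 (standard error, SE) and an edgeR adjusted p of 0.00329. Its sequence is close to that of Tpm3, so reads may have been split between the loci; Tpm3 itself ran the other way, with 156, 153 and 161 CPM in HFD against 173, 171, 192 and 199 CPM in LPD (log2 -0.23 ± 0.07, adjusted p = 0.297). The call was lost, with a like fold, without HFD 1 (log2 0.94, adjusted p = 0.0567 by edgeR) and without HFD 2 (0.97, adjusted p = 0.0588). With the duplicate share as a covariate the log2 fold change was 0.78 and the adjusted p 0.522; over all 23 alternatives the adjusted p ran from 5.37e-22 (DESeq2) to 1 (21 libraries in the fit), with the direction unchanged. At an unadjusted p under 0.05 there were 2277 genes, 1268 higher and 1009 lower in HFD. With so few libraries, which varied widely within a diet, the single call does not show that the diets differ little.

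A second tool called many more. DESeq2, which tested 13653 genes after its own filtering, passed 315: 251 higher in HFD (1.84%) and 64 lower (0.469%). Because edgeR passed so few, the genes described next are the 12 of smallest p in each direction among genes with an established name, a higher group mean of 5 CPM or more and no overlap between the diets, given as a description. Every HFD library lay above every LPD library in 1547 genes, 7.59% of those tested, and below every one in 1004 genes, 4.93%. All 24 named genes passed in DESeq2, and Tpm3-rs7 alone of them in edgeR.

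After Tpm3-rs7, the smallest p belonged to Klk1, tissue kallikrein, a serine protease that releases kinins. Klk1 had 38.9, 37.1 and 33.7 CPM in HFD against 19.7, 18.8, 16.1 and 12.97 CPM in LPD, a log2 fold change of 1.11 ± 0.13 (SE) with an edgeR adjusted p of 0.0622. Tdh, the mitochondrial threonine dehydrogenase of mouse, had 17.2, 14.2 and 15.9 CPM in HFD and 8.83, 8.55, 9.86 and 8.21 CPM in LPD. Its log2 fold change was 0.83 ± 0.12 and its edgeR adjusted p 0.123. In both genes the diets were well apart. Nr1h5, a nuclear receptor of the farnesoid X receptor family, had 15.2, 15.6 and 18.8 CPM in HFD and 9.41, 10.2, 7.87 and 8.68 CPM in LPD (log2 0.87 ± 0.13). Rnd2, a small GTPase, was tight in HFD at 42.3, 42.7 and 43.1 CPM, against 27.9, 30.7, 25.9 and 28.7 CPM in LPD (log2 0.59 ± 0.07). Aldh1b1, a mitochondrial aldehyde dehydrogenase known from mouse pancreatic progenitors, was the most abundant of these genes. It had 430.3, 416 and 418 CPM in HFD against 341, 337, 327 and 325 CPM in LPD (log2 0.34 ± 0.06, edgeR adjusted p = 0.202).

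The other 6 genes higher in HFD had log2 fold changes from 0.33 to 0.55. They were Rrs1 (ribosome assembly), Stk39 (a kinase that acts on chloride cotransporters), Psme3 (a proteasome activator), Sephs2 (selenophosphate synthesis), Hspe1 (the co-chaperonin of mitochondria) and Cwc22 (a spliceosome component). Sephs2 had 167, 159 and 155 CPM in HFD and 114, 127, 97.6 and 101 CPM in LPD. Hspe1 had 119.5, 114 and 107 CPM in HFD and 92.5, 90.8, 89.0 and 88.3 CPM in LPD, and its partner Hspd1 also lay above in every HFD library (log2 0.24 ± 0.08, adjusted p = 0.306).

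**Figure D2:**
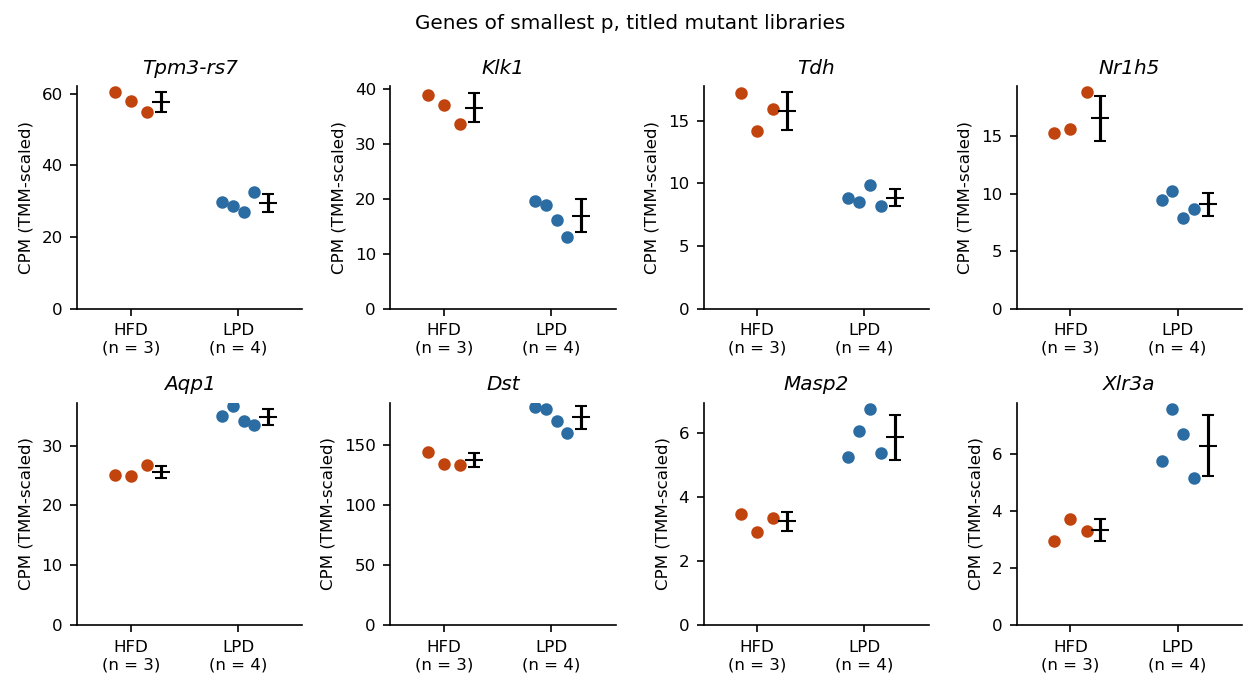
CPM (TMM-scaled, axes from 0) of 8 genes of smallest p in titled mutant libraries, HFD at the left (3 libraries) and LPD at the right (4 libraries); black marks give the mean ± SD. Tpm3-rs7, Klk1, Tdh and Nr1h5 are higher in every HFD library, and Aqp1, Dst, Masp2 and Xlr3a lower in every HFD library.

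Among genes lower in HFD, Aqp1, the water channel, had the smallest p. Aqp1 had 25.03, 24.9 and 26.7 CPM in HFD against 35.01, 36.6, 34.1 and 33.4 CPM in LPD, a log2 fold change of -0.45 ± 0.07 with an edgeR adjusted p of 0.189. Among the other genes lower in HFD, Dst (dystonin, a cytoskeletal linker) had 144, 134 and 134 CPM in HFD against 182, 180.3, 170.3 and 161 CPM in LPD, and Syne1 (a nesprin of the nuclear envelope) had 39.1, 37.7 and 35.4 CPM in HFD against 47.6, 49.3, 54.2 and 48.1 CPM in LPD. The ion transport genes Slc12a7, a potassium-chloride cotransporter, and Lrrc8c, a subunit of the volume-regulated anion channel, had log2 fold changes of -0.50 ± 0.10 each. Masp2, a protease of the lectin pathway of complement, was near the abundance limit, with 3.48, 2.90 and 3.33 CPM in HFD and 5.25, 6.06, 6.76 and 5.37 CPM in LPD (log2 -0.85 ± 0.17). Xlr3a, with 2.95, 3.71 and 3.30 CPM in HFD and 5.73, 7.56, 6.69 and 5.15 CPM in LPD (log2 -0.92 ± 0.19), belongs to a cluster of near-identical X-linked copies, so its counts are uncertain. Slc29a1 (a nucleoside transporter), Gabbr1 (a subunit of the GABA-B receptor), Zfp462, Frmd4a and Sparc completed the list, at log2 fold changes from -0.56 to -0.33. Sparc, a matrix protein made mainly by stroma, had 158, 143 and 134 CPM in HFD and 189, 177, 173 and 188 CPM in LPD. The mesenchyme sum was 1150, 1134 and 446 CPM of total in HFD and 676, 674, 1691 and 1627 in LPD. Sparc and the sum were both lowest in HFD 3. In HFD 1 and HFD 2 the sum was above that of LPD 1 and LPD 2, whereas Sparc was below. Of 24 mesenchyme genes 20, Sparc among them, had negative log2 fold changes. The part of stromal cells in the Sparc difference was not tested.

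No member of any of the 42 gene lists passed edgeR, so the lists are described by counts and medians. In the list of protein folding in the endoplasmic reticulum, 17 of the 23 tested members lay above in every HFD library and none lay below in every one, beside 7.59% and 4.93% of all genes. Its median log2 fold change was 0.21, beside -0.03 over all genes. DESeq2 passed 7 members, all higher, beside 1.84% of the genes it tested. The members named here and in the lists that follow are those of smallest p or of known central role, picked after their values were seen. Sdf2l1, a component of the Hspa5 chaperone complex, had 188, 198 and 189.5 CPM in HFD and 168, 154, 131 and 137 CPM in LPD (log2 0.38 ± 0.08, edgeR adjusted p = 0.238). Dnajb11, a co-chaperone of Hspa5, had 138, 146 and 132 CPM in HFD and 109.7, 110.3, 117 and 102 CPM in LPD (log2 0.34 ± 0.06). Edem1, which hands misfolded glycoproteins to degradation, had 689.7, 730.5 and 646 CPM in HFD and 549, 569, 478 and 565 CPM in LPD (log2 0.35 ± 0.08). Hspa5, the main chaperone of the lumen, differed less, with 1400.5, 1377 and 1453 CPM in HFD and 1276, 1312, 1205 and 1077 CPM in LPD (log2 0.21 ± 0.08, edgeR adjusted p = 0.376). Manf, Creld2, Hyou1, Dnajc3, Calr and Xbp1 also lay above in every HFD library, with log2 fold changes from 0.20 to 0.33. Of the sensors, Ern1 had a log2 fold change of 0.14 ± 0.06 with no overlap, and Atf6 of -0.04 with overlap.

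The summed level of the list was 10960, 11140 and 10360 CPM of total in HFD and 9870, 10270, 10190 and 8713 in LPD, lowest in LPD 4. Acinar enzymes summed to 38340, 36470 and 36820 CPM of total in HFD and 35740, 36530, 31890 and 27560 in LPD, also lowest in LPD 4. Endothelial, blood and mesenchyme lists had the negative medians given for them. By library, however, the blood and mesenchyme sums were lower in LPD 1 and LPD 2 than in HFD 1 and HFD 2. Both sums were highest in LPD 3 and LPD 4. The part of acinar and other cells in the difference of the chaperones was not tested. Without LPD 1 and LPD 2, which left 5 libraries, the folding list had a median of 0.33 with 22 of 23 members above, where 16.8% of all genes were above. Without the 3 libraries with hormone RNA the median was 0.34, and with each library left out in turn it ran from 0.17 to 0.26. With the duplicate share as a covariate it was 0.15.

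Chaperone genes of this list are known targets of an endoplasmic reticulum stress element in their promoters, and the sequences are shown for that reason. The element as searched is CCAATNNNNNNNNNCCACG, on both strands, in the RefSeq promoter windows of 250 bases before to 50 after the start (GRCm38.p6). It was found for 8 of the 20 list members with a window (40%), against 37 of 27025 genes (0.137%); Atf6, Hyou1 and Manf had none in the table. Those with it were Hspa5, Hsp90b1, Calr, Canx, Pdia6, Dnajc3, Creld2 and Syvn1. A match describes these letters only. The windows of Hspa5 (chr2:34771840-34772139, plus strand), Calr (chr8:84846882-84847181, minus strand), Dnajc3 (chr14:118937682-118937981, plus strand) and Creld2 (chr15:88819396-88819695, plus strand) are printed 5′ to 3′ with the element in capitals, reversed in Calr and Creld2.
Hspa5: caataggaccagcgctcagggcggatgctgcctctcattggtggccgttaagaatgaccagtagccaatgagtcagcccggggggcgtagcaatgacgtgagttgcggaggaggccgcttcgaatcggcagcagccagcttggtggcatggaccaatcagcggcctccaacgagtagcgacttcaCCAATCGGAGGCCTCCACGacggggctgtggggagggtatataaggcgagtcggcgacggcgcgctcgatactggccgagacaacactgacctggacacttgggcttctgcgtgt
Calr: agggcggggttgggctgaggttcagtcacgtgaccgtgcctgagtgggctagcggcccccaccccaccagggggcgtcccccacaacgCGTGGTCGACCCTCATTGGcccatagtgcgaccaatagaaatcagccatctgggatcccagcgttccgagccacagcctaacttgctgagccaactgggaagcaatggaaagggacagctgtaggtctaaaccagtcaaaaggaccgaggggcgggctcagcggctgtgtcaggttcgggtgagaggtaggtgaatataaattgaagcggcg
Dnajc3: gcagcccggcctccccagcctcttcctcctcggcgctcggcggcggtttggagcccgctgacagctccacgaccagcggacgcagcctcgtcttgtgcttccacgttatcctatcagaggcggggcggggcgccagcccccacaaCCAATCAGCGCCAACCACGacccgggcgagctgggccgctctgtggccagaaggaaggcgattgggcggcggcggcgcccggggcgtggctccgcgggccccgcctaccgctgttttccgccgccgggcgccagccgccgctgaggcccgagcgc
Creld2: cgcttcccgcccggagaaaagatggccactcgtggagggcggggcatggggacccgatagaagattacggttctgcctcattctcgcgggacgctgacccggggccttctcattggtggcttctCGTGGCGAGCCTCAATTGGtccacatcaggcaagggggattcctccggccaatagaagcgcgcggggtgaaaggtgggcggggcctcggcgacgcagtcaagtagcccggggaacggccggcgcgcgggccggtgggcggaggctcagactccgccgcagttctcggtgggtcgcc
The element began 65, 162, 105 and 126 bases before the start in these windows. All of these genes had no overlap between the diets, as did Canx (log2 0.13) and Pdia6 (log2 0.21), whereas Hsp90b1 (log2 0.25) and Syvn1 (log2 0.12) overlapped. Calr had 1128, 1101 and 1067 CPM in HFD against 1019, 1016, 934 and 823 CPM in LPD. Dnajc3, an inhibitor of Eif2ak3 and a co-chaperone, had 284, 286 and 271 CPM in HFD against 245, 254, 241 and 233 CPM in LPD. Creld2 had 136, 135 and 126 CPM in HFD against 116, 108, 104 and 98.1 CPM in LPD. Sdf2l1, Dnajb11 and Edem1, whose windows lack these letters, also lay above in every HFD library.

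**Figure D3:**
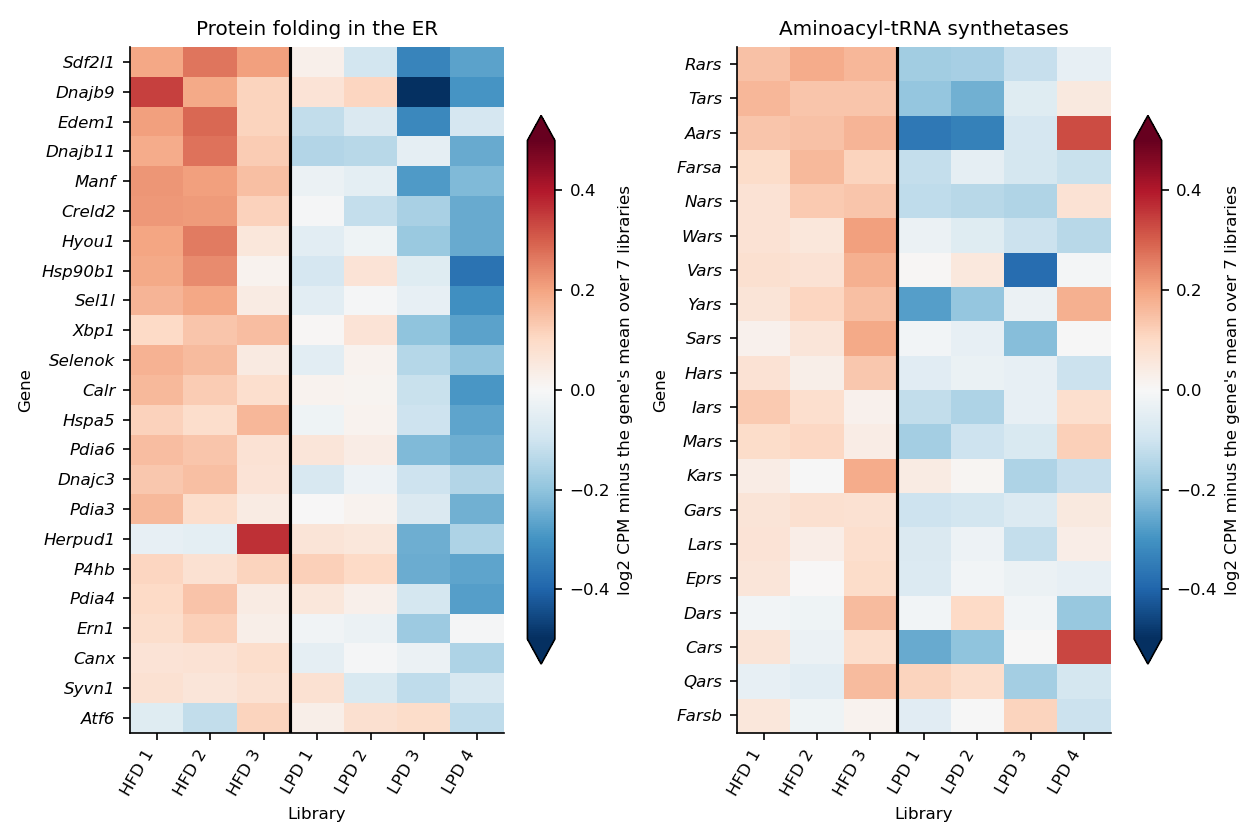
Row-centred log2 CPM of the 23 protein folding genes (left) and the 20 aminoacyl-tRNA synthetases (right) in each titled mutant library, HFD left of the black line and LPD right of it; genes run from the highest to the lowest log2 fold change. Most rows are red in all HFD libraries; LPD 4 is the lowest for most chaperones, and Aars and Cars are high in it.

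Aminoacyl-tRNA synthetases are the enzymes that charge transfer RNA with amino acids. They lay above in every HFD library in 11 of 20 members and below in none, beside 7.59% and 4.93% of all genes. The median log2 fold change was 0.14. All 20 had a positive log2 fold change, from 0.03 to 0.29. DESeq2 passed 2, both higher, beside 1.84% of the genes it tested. With limma on log2(FPKM + 1), where the median of all genes was -0.052, that of the list was 0.067 and 18 of 20 were positive. Rars, the arginine enzyme, had 104, 106 and 105 CPM in HFD and 83.1, 83.4, 86.3 and 91.0 CPM in LPD (log2 0.29 ± 0.06, edgeR adjusted p = 0.213). Farsa, a subunit of the phenylalanine enzyme, had 106, 112 and 108 CPM in HFD and 91.8, 96.7, 94.0 and 92.3 CPM in LPD. Tars, the threonine enzyme, had 91.9, 90.2 and 90.1 CPM in HFD and 71.7, 69.4, 78.6 and 84.8 CPM in LPD (log2 0.25 ± 0.07). The list's sum was 3200, 3224 and 3230 CPM of total in HFD and 2861, 2979, 3199 and 3174 in LPD, so that the margin over LPD 3 and LPD 4 was small. The TMM factors were 0.978, 0.993 and 0.949 in HFD and 0.969, 0.996, 1.111 and 1.012 in LPD. The factor of LPD 3 lowers its scaled values relative to its CPM of total.

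Many synthetase genes are known targets of Atf4, as are the genes of the amino acid response list, which held transporters, serine synthesis enzymes and Atf4 partners. That list was mixed, with 4 of 30 members above and 1 below, beside 7.59% and 4.93% of all genes, and a median of 0.07. Asns, asparagine synthetase, had 271, 261 and 255 CPM in HFD and 244, 239.7, 215 and 227 CPM in LPD (log2 0.18 ± 0.06, edgeR adjusted p = 0.340). Phgdh, the first enzyme of serine synthesis, and Slc38a2, a neutral amino acid transporter, had log2 fold changes of 0.23 ± 0.08 and 0.16 ± 0.06 with no overlap. Trib3, a target of the same factor, overlapped at 2.24, 1.91 and 4.17 CPM in HFD and 2.65, 2.89, 1.95 and 5.91 CPM in LPD. Vldlr was the member below, at a log2 fold change of -0.24 ± 0.08. The largest value in the list was that of Atf3, also an immediate early gene, with 189, 208 and 302 CPM in HFD and 142, 138, 116 and 149 CPM in LPD (log2 0.78 ± 0.16, edgeR adjusted p = 0.242).

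The core of the element bound by Atf4 with C/EBP factors, searched as TGATGNAA on both strands, was in the promoter windows of 1219 of 27025 genes (4.51%). It was in 5 of the 12 synthetases with a window (41.7%) and in 9 of 28 amino acid response genes (32.1%). The windows of Tars (chr15:11399609-11399908), Asns (chr6:7693160-7693459) and Atf3 (chr1:191183284-191183583), all on the minus strand of GRCm38.p6, are shown with the core in capitals, read in reverse in Tars and Atf3.
Tars: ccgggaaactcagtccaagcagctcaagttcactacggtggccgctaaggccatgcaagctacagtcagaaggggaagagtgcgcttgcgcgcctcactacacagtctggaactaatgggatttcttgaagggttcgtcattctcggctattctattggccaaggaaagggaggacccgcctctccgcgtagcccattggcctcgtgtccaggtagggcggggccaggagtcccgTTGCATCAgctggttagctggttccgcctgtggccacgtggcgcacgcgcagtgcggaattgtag
Asns: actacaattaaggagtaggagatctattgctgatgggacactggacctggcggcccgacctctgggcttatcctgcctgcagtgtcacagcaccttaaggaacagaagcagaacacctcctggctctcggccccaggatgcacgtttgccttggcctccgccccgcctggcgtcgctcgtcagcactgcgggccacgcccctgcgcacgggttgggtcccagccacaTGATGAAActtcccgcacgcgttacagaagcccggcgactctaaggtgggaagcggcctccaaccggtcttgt
Atf3: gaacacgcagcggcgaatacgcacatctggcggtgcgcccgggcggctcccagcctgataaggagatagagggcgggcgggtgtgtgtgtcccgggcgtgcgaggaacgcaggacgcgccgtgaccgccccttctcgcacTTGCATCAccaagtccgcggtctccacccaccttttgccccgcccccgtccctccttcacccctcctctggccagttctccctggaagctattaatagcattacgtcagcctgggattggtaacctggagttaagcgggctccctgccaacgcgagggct
The core began 15, 23 and 110 bases before the start. The genes that hold it were not uniform in these libraries. Asns, Atf3, Tars and Gars lay above in every HFD library, Vldlr lay below in every one, and Trib3, Aars, Yars, Iars, Chac1, Slc7a11, Nupr1 and Pck2 overlapped; Fgf21 was too low to be tested.

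Nuclear genes of the respiratory chain lay above in every HFD library in 12 of 32 members and below in none. Over all genes these shares were 7.59% and 4.93%. The median of the list was 0.14 (0.07 with limma on log2(FPKM + 1)). DESeq2 passed 3 members, all higher, beside 1.84% of the genes it tested. Uqcrfs1, the iron-sulphur subunit of complex III, had 115, 115 and 126 CPM in HFD and 103, 103, 93.4 and 97.9 CPM in LPD (log2 0.26 ± 0.06, edgeR adjusted p = 0.246). Ndufv2, of complex I, had 91.0, 88.2 and 92.6 CPM in HFD and 77.8, 77.5, 81.4 and 80.2 CPM in LPD. The genes encoded in the mitochondrion itself did not share this: 1 of 11 lay above, near the 7.59% of all genes, and the median was 0.01. Mitochondrial counts were 1.01%, 0.851% and 1.02% of the total in HFD and 1.04%, 0.991%, 1.36% and 1.01% in LPD. Antioxidant genes lay above in 6 of 20 members and below in none, beside 7.59% and 4.93% of all genes. Their median of 0.10 was 0.063 without HFD 3, 0.036 with limma and 0.21 with the duplicate share as a covariate. Among them were Prdx6 (a peroxiredoxin), Txnrd1 (thioredoxin reductase) and Gsr (glutathione reductase) at log2 fold changes of 0.22 ± 0.05, 0.22 ± 0.06 and 0.25 ± 0.06. Prdx6 had 193, 188 and 200 CPM in HFD and 167, 169, 164 and 165 CPM in LPD. Ribosomal protein genes had a median of 0.05 with 2 of 45 above, but these values depended on the libraries. Without LPD 1 and LPD 2 the median was 0.18 with 28 of 45 above, where 16.8% of all genes were above; without HFD 3 the median was 0.006, and with limma it was -0.017.

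Acinar enzymes lay above in 8 of 27 members and below in none, beside 7.59% and 4.93% of all genes. Their median was 0.30. DESeq2 passed 4, all higher, beside 1.84% of the genes it tested. The median was 0.16 with the duplicate share as a covariate and 0.19 with limma. Without LPD 1 and LPD 2, 18 of 27 lay above, where 16.8% of all genes were above. Sycn, a protein of the zymogen granule, had 42.1, 37.4 and 34.4 CPM in HFD and 29.6, 26.6, 25.3 and 20.03 CPM in LPD (log2 0.58 ± 0.13, edgeR adjusted p = 0.238). Ctrb1, chymotrypsinogen, the most abundant of those named, had 15299.8, 14170.5 and 14919 CPM in HFD and 13561, 13625, 11048 and 10383 CPM in LPD (log2 0.28 ± 0.12). The gap was wide to LPD 3 and LPD 4 and narrow to LPD 1 and LPD 2. Of 9 acinar transcription factors 2 lay above and none below, beside 7.59% and 4.93% of all genes, with log2 fold changes from -0.505 to 0.366. Those above were Gata4 and Xbp1, at 0.26 ± 0.08 and 0.22 ± 0.09, and Xbp1 is also counted in the folding list.

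Immediate early genes, which cell dissociation is known to induce, lay above in 8 of 24 members and below in none. Over all genes these shares were 7.59% and 4.93%. The median of the list was 0.29. DESeq2 passed 4 members, all higher, beside 1.84% of the genes it tested. Jund had 160.0, 169.9 and 194 CPM in HFD and 134, 129, 92.1 and 128 CPM in LPD (log2 0.53 ± 0.13, edgeR adjusted p = 0.248). Klf6 had 201, 219 and 335 CPM in HFD and 160.0, 166, 121 and 184 CPM in LPD. HFD 3 was the highest library for Atf3, Jund, Ier2 and Klf6, and its sum of the list was 7150 CPM of total, against 5630 and 5786 in HFD 1 and HFD 2 and 4345 to 5396 in LPD. In the main fit 22 of 24 members had a positive log2 fold change. Without HFD 3 the median of the list was 0.24 with 17 positive. With the duplicate share as a covariate it was 0.49 with 18 positive. Whether sorting or dissociation differed between these libraries was not tested.

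**Figure D4:**
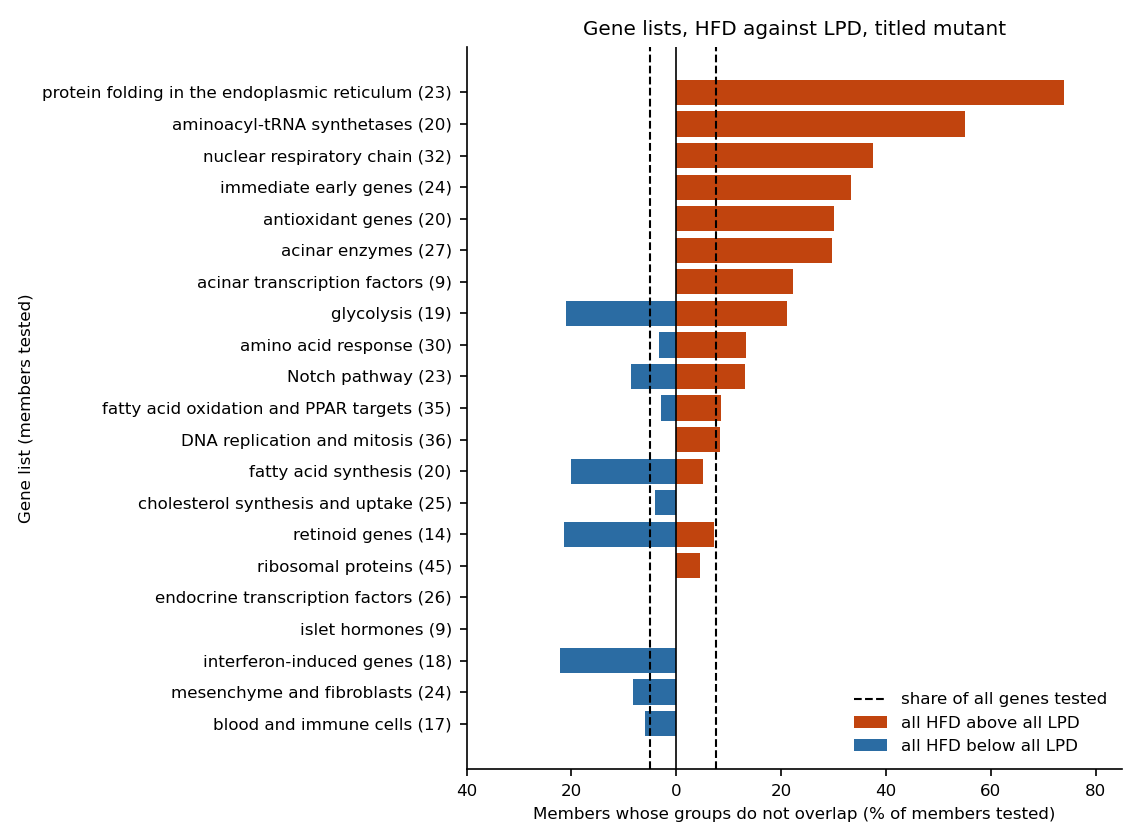
Share of each list's tested members (number in brackets) in which all HFD libraries lie above (right) or below (left) all LPD libraries, with dashed lines at the shares over all genes tested (7.59% and 4.93%). Protein folding (17 of 23) and synthetases (11 of 20) extend farthest to the right; glycolysis holds 4 members on each side, and hormone and endocrine factor lists hold none.

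Lipid genes differed in few members. In fatty acid synthesis 1 of 20 members lay above and 4 below, beside 7.59% and 4.93% of all genes. The median of -0.04 was close to that of all genes. Fads1, a desaturase of polyunsaturated fatty acids, had 66.2, 69.5 and 65.5 CPM in HFD and 102, 98.1, 72.2 and 79.4 CPM in LPD (log2 -0.39 ± 0.12, edgeR adjusted p = 0.298). Fads2, its neighbour in the pathway, had 110.2, 112 and 111 CPM in HFD and 147, 138, 121 and 122 CPM in LPD. For both, LPD 1 and LPD 2 were well above LPD 3 and LPD 4. In fatty acid oxidation 3 of 35 members lay above and 1 below, not far from the shares of all genes. Cpt1a (carnitine transfer), Plin2 (lipid droplets) and Pdk4 (a kinase that restrains pyruvate oxidation) overlapped, at 0.09 ± 0.11, -0.15 ± 0.09 and 0.57 ± 0.45. Pdk4 was high in HFD 3 alone, with 3.46, 3.46 and 9.29 CPM in HFD and 4.31, 4.86, 1.74 and 3.60 CPM in LPD.

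Glycolysis genes split, with 4 of 19 above and 4 below, beside 7.59% and 4.93% of all genes. The hexokinases went opposite ways: Hk2 had 129, 128 and 123 CPM in HFD and 115, 112, 111 and 107 CPM in LPD, whereas Hk1 had 13.3, 12.5 and 9.35 CPM in HFD and 14.99, 15.4, 24.7 and 18.95 CPM in LPD. Both passed DESeq2 (adjusted p of 0.0484 and 0.0471) and neither passed edgeR (0.275 and 0.297).

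Retinoid genes also split. Aldh1a1, which makes retinoic acid, had 122, 120.0 and 111 CPM in HFD and 90.8, 92.2, 89.8 and 56.7 CPM in LPD (log2 0.51 ± 0.16). The receptor gene Rarg had 8.22, 7.70 and 9.76 CPM in HFD and 12.4, 12.6, 10.6 and 10.4 CPM in LPD (log2 -0.43 ± 0.13). Cyp26b1, which degrades retinoic acid, was below in every HFD library but under 2.4 CPM in all. Of 14 members 1 lay above and 3 below, beside 7.59% and 4.93% of all genes.

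In the Notch pathway, which holds progenitors back from the islet fate, 3 of 23 members lay above and 2 below, not far from the 7.59% and 4.93% of all genes, so that nothing is read from the list and single members are described. The target Hes1 and the modifier Lfng lay above, and the receptors Notch2 and Notch3 below. Hes1 had 119.8, 109 and 181 CPM in HFD and 96.7, 90.5, 78.2 and 98.5 CPM in LPD (log2 0.59 ± 0.18, edgeR adjusted p = 0.317). Notch3 had 29.1, 28.4 and 31.8 CPM in HFD and 38.9, 40.2, 33.9 and 37.7 CPM in LPD (log2 -0.34 ± 0.08, edgeR adjusted p = 0.242). Sox9 and Pdx1, the defining progenitor factors, overlapped at log2 fold changes of -0.02 ± 0.14 and -0.06 ± 0.11. Mki67, of dividing cells, overlapped at -0.08 ± 0.09, and 3 of 36 replication and mitosis genes lay above, near the 7.59% of all genes. Cdkn1c, an imprinted cell cycle inhibitor, was among the smallest p values of any list, with 91.7, 96.5 and 88.4 CPM in HFD and 73.6, 76.4, 76.9 and 75.0 CPM in LPD (log2 0.29 ± 0.05, edgeR adjusted p = 0.213). Zim1, also imprinted, had 77.3, 74.9 and 90.3 CPM in HFD and 107, 111, 120.3 and 94.1 CPM in LPD (log2 -0.42 ± 0.09). Igf2 and H19, an imprinted growth factor and its neighbouring non-coding RNA, overlapped at 0.10 ± 0.10 and 0.10 ± 0.17.

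All 9 islet hormone genes tested and all 26 endocrine transcription factors had negative log2 fold changes, with medians of -2.52 and -1.55. None of them passed edgeR, and in all of them the diets overlapped. In the islet genes given here, the spread within LPD was larger than the gap between the diets. Ins2 had 24.6, 1.62 and 0.031 CPM in HFD and 98.0, 102, 0 and 0 CPM in LPD. Gcg had 6.85, 0.56 and 0.093 CPM in HFD and 34.4, 36.1, 0.28 and 0 CPM in LPD. Ins1, Sst and Neurod1 likewise were high in LPD 1, LPD 2 and HFD 1 and at or near 0 elsewhere. The fitted log2 fold changes from -2.76 to -2.47 had SEs of 2.26 to 2.47. Neurog3 had 11.4, 6.18 and 8.27 CPM in HFD and 20.2, 23.3, 7.42 and 6.12 CPM in LPD (log2 -0.72 ± 0.55, edgeR adjusted p = 0.667), high in the same LPD libraries. Ghrl, by contrast, was even, with 3.02, 3.95 and 3.21 CPM in HFD and 3.89, 4.46, 3.27 and 3.03 CPM in LPD. Hspa1a, a heat shock gene, marked the same pair of LPD libraries, with 0.16, 0.28 and 0.86 CPM in HFD and 19.4, 17.9, 0.17 and 0.54 CPM in LPD. LPD 1 and LPD 2 were the most alike pair of libraries (Pearson r of 0.992 over genes) and differed by 2.81 times the sampling noise, the least of any pair. That ratio cannot tell separate pools from repeat libraries of the same pool. The pair was kept as separate libraries in the main fit. With their counts summed, 1 gene passed, Tpm3-rs7 (edgeR adjusted p = 0.0302). Xist, which follows the share of females in a pool, overlapped between the diets at a log2 fold change of 0.13 ± 0.22. All 4 male-linked genes had negative log2 fold changes, from -0.59 ± 0.21 in Uty to -0.16 ± 0.14 in Ddx3y, and 1 of them, Eif2s3y, lay below in every HFD library (log2 -0.32 ± 0.17, edgeR adjusted p = 0.512). The share of each sex in these pools was not tested.

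The same diet contrast in the titled control libraries shares no library with this one. Crosses of Ngn3eGFP/+ parents give both genotypes, so libraries of the titles may share litters and the contrasts may not be independent. No gene passed edgeR there (0% of 22825; 3219 at an unadjusted p under 0.05; 370 by DESeq2), and no gene passed the test of the difference between titles (0%; 833 at an unadjusted p under 0.05; 0 by DESeq2). All 12 genes higher in HFD had a positive log2 fold change there too, and 10 of the 12 genes lower in HFD a negative one, where 67.7% of the 11612 genes of at least 5 CPM had the same sign in both titles. In 7 of the higher genes and 2 of the lower ones the titled control groups did not overlap either, on the same side. Over all genes, 5.29% of titled control genes lay above in every HFD library and 4.4% below, and 422 of the 11612 did so on the same side in both titles. The named genes were picked for no overlap and small p in the titled mutant, so these shares and the 67.7% are not a like baseline. Of the 1547 genes above and 1004 below in the titled mutant, 474 had no overlap on the same side in the titled control. Klk1 had 42.8, 34.0 and 24.1 CPM in titled control HFD against 3.61, 10.0, 10.0 and 9.52 CPM in titled control LPD, a log2 fold change of 2.01 ± 0.29 (edgeR adjusted p = 0.0552). Tdh had 18.8, 19.2 and 13.2 CPM against 1.96, 5.88, 6.84 and 5.68 CPM (log2 1.73 ± 0.27, edgeR adjusted p = 0.0552), and both log2 values were larger than in the titled mutant. Nr1h5 had 11.4, 11.7 and 19.8 CPM in HFD against 6.67, 8.05, 6.90 and 4.62 CPM in LPD. Tpm3-rs7 had 51.4, 51.9 and 55.6 CPM in HFD and 48.6, 35.3, 31.7 and 30.3 CPM in LPD (log2 0.54 ± 0.13), the highest LPD library close to HFD. Sparc and Masp2 were the exceptions in sign, at 0.05 ± 0.13 and 0.09 ± 0.20 in the titled control. The tests of the difference had adjusted p values of 0.996 or more in all of these genes, which does not show that the titles respond alike.

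**Figure D5:**
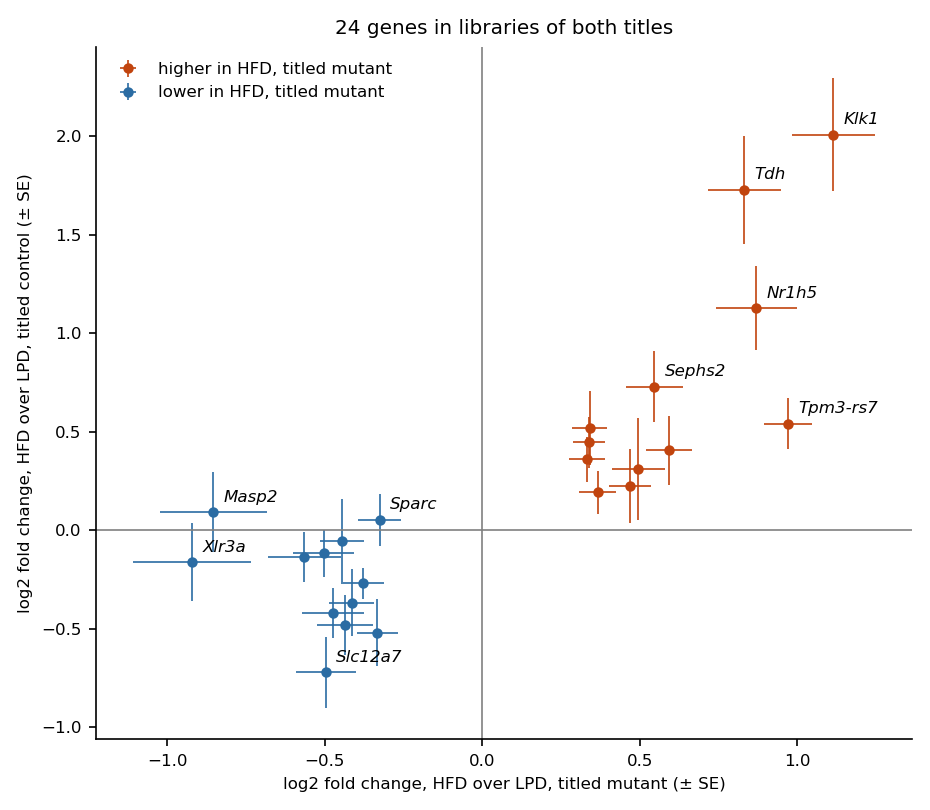
Log2 fold change (HFD over LPD) in titled mutant libraries (horizontal) against titled control libraries (vertical) for the 24 named genes, with bars of ± SE. All 12 genes higher in HFD in the titled mutant are above 0 in the titled control, and 10 of the 12 lower genes are below 0.

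The lists named for members above in HFD had positive medians in the titled control libraries as well. Protein folding genes had a median log2 fold change of 0.26 with 12 of 23 members above and none below, and synthetases 0.22 with 2 of 20 above. The respiratory chain had 0.23 with 6 of 32 above, and antioxidant genes 0.17 with 6 of 20. Acinar enzymes had 1.05 with 17 of 27 above, and immediate early genes 0.34 with 3 of 24. Ribosomal proteins, at 0.05 in the titled mutant, had 0.30 with 14 of 45 above in the titled control. Positive medians there were not particular to these lists. Replication and mitosis had 0.26, histones 0.31, hypoxia-induced genes 0.27 and mitochondrially encoded genes 0.51, against 0.006 to 0.04 in the titled mutant. Mesenchyme had 0.76, against -0.32. Other lists near 0 in the titled mutant were negative, such as Notch (-0.15) and chromatin regulators (-0.08). The median over all genes was -0.03 in both titles, and 5.29% of titled control genes lay above and 4.4% below. Endocrine transcription factors, at -1.55 in the titled mutant, had -0.66 in the titled control, with 2 of 26 below and 0 above. Islet hormones had -0.45 there, with none above or below. Neurog3 had 119, 91.1 and 130 CPM in titled control HFD and 226, 178, 201 and 145 CPM in titled control LPD. Its groups did not overlap there (log2 -0.73 ± 0.42, edgeR adjusted p = 0.46). The differences between the titles in these lists were not tested.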

How the data were processed

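RNA of sorted eGFP-positive cells was sequenced from ribosomal-depleted, strand-specific libraries made from 50 ng of RNA, per the labels' protocols. The authors' tools included featureCounts 2.0.2, cutadapt 2.10 and STAR 2.7.8a, with GRCm38.p6 (submitters' processing notes). Whether duplicates were kept, and which strand was counted, is not given in the sources read here. The deposited count table holds raw whole-number counts per gene for 40173 genes. The deposited FPKM table, scaled by the authors for length and library total, was rebuilt from the counts with a median relative difference of 3.88e-05. Duplicate and aligned reads are given as a percent per library in a deposited table of read statistics. Spreadsheet dates in place of 26 gene names were restored by identifier, and 2 lines that name no gene were left out.

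Groups followed the titles. Counts of the 7 libraries were fitted with edgeR 4.0.16 (limma 3.58.1, R 4.3.3): filterByExpr, TMM scaling, robust quasi-likelihood F-tests and Benjamini-Hochberg adjustment over all 20369 genes tested. The titled control contrast and the difference between titles came from 1 model of 14 libraries, whose TMM scale the titled control CPM values use. DESeq2 1.42.0 and limma on log2(FPKM + 1) were alternatives. A library range is described as not overlapping when every HFD library lies on the same side of every LPD library. The SE is the log2 fold change over the square root of F. Named genes were the 12 of smallest p in each direction with an established name, no overlap and a mean of 5 CPM or more (the rule for fewer than 5 passing genes), and 20 genes named throughout; a few genes of that rule and of the lists are not reported here. The members and the 42 lists were chosen with earlier results of these data known. Promoters were from RefSeq (GRCm38.p6), searched on both strands. The fits were also run on simulated data with known changes, and how well small fold changes were recovered is not reported here. The replicate numbers do not pair the libraries by the labels. Library counts of 25881953 to 44688814 limit precision for genes of few CPM. Figures used Python 3.11.15 and matplotlib 3.10.9.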

Additional observations from a re-analysis of the deposited data

Results flagged for a closer look

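In groups of 4 libraries, 92 library values were screened for a library far from the other 3, and 11 stood out; about 1 in 20 would by chance, and many of these values move together. In LPD 3, Xist was 382 CPM (TMM-scaled), against 679 to 698 in the other LPD libraries, and 424 CPM of total against 657 to 705. LPD 3 also had liver genes at 1749 CPM of total, against 732 to 758, endothelial genes at 267, against 495 to 516, and mitochondrial counts at 1.36% of the total, against 0.991% to 1.04%. In LPD 4, trunk and duct genes summed to 4340 CPM of total, against 5243 to 5334, and acinar transcription factors to 1674, against 1892 to 1921. LPD 4 was also low for glycolysis, at 4499 against 5537 to 5748, for fatty acid synthesis, at 2682 against 2955 to 2990, and for retinoid genes, at 239 against 302 to 314. In LPD 2, 28970 genes were detected, against 29497 to 29541 in the others. The part of these values in the diet comparison was not tested.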

How the results depend on the processing

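Besides 1 gene for the titled mutant, DESeq2 called 315, edgeR with no filter on low counts 13, and edgeR without LPD 1 and LPD 2 (chosen after seeing the data) 37, of which 32 were higher in HFD. No gene passed with limma on unfiltered log2(FPKM + 1), with 21 libraries in the fit, with the replicate block, without the 3 libraries with hormone RNA or with the duplicate share as a covariate (also chosen after seeing the data); each gave 0. Leaving out each library gave 0 to 3 genes. For the titled control the count of 0 became 370 with DESeq2 and 4 with no filter. Leaving out each library there gave 0 to 787, with 787 without titled control LPD 4, 29 without LPD 1, 18 without HFD 3 and 1 without LPD 2; the cause was not tested. The difference between titles stayed at 0 in every alternative run. The replicate block was fitted although the numbers do not pair the libraries (correlations of the deviations of 0.03, -0.26 and -0.18); with it Tpm3-rs7 had a log2 fold change of 1.02 and an adjusted p of 0.2.

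The 24 named genes kept their direction in all 23 alternatives, except that Xlr3a has no value with chromosomes X and Y left out. Over the same alternatives the list medians ran from 0.15 to 0.34 for protein folding, 0.067 to 0.18 for synthetases, 0.07 to 0.19 for the respiratory chain, 0.16 to 0.44 for acinar enzymes, 0.21 to 0.49 for immediate early genes, 0.036 to 0.21 for antioxidant genes and -0.017 to 0.18 for ribosomal proteins, beside -0.086 to -0.004 for all genes. Of the 20 genes named throughout, those near 0 or with large spread changed sign as follows, in log2 fold change. With the duplicate share as a covariate Mki67 was 0.13, Trib3 0.19 and Plin2 0.007; with the replicate block Trib3 was 0.083 and H19 -0.025. Without the 3 libraries with hormone RNA, Neurog3 was 0.10, Ghrl 0.19, Sox9 0.27 and Pdx1 0.007. Without LPD 1 and LPD 2, Neurog3 was 0.36, Gcg 4.16, Ghrl 0.11, Sox9 0.25 and Pdx1 0.10; Ins1, Ins2, Sst and Neurod1 had at most 3 counts in the LPD libraries left, so no fold is given. Sox9 was 0.061 with LPD 1 and LPD 2 summed. Leaving out each library in turn, the range was -0.095 to 0.094 for Sox9, -0.147 to 0.045 for Pdx1, -0.06 to 0.182 for Cpt1a, -0.068 to 0.818 for Pdk4, -0.035 to 0.19 for H19, -0.229 to 0.001 for Ghrl, -0.123 to 0 for Mki67, -0.036 to 0.204 for Xist and -0.683 to 0.151 for Trib3.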
